A study of Mus musculus with 22 samples.

Results

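CRE loops join 2 cis-regulatory elements, such as enhancers and promoters, and in the authors' categories CTCF with cohesin was present at 1 of their anchors or at neither. The loops described here lay inside the span of at least 1 structural loop, that is, a loop with CTCF and cohesin at both anchors and a cis-regulatory element at no more than 1 of them, and no structural loop crossed them. Of the 16370 loops in the series, 4642 were CRE loops in the authors' classification, and 3613 of those spanned up to 500 kb. Each loop was placed by the midpoints of its 2 summit bins. A loop was kept when both midpoints lay within a structural loop of the same chromosome, ends included, and when no structural loop reached across an end of it, with only 1 of its own midpoints inside. This gave 917 uncrossed inside loops, 25.4% of the CRE loops up to 500 kb. The other 3 positions served for comparison. They held 545 CRE loops that were both encompassed and crossed, 981 that were crossed only, and 1170 that were neither, called free here.

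The maps came from in situ Hi-C of G1E-ER4 cells, a subline of the GATA1-null mouse proerythroblast line G1E. Unlike a plain null line, G1E-ER4 is reported by the authors to be inducible to terminal erythroid differentiation. In every group, controls included, both CTCF alleles carried a fusion to an auxin-inducible degron and mCherry, and the cells expressed the plant ubiquitin ligase adaptor OsTiR from a retrovirus with a GFP marker. For ana/telophase the OsTiR construct also carried a mitotic degron, so that stage came from another transduced population than the rest. Cells were arrested in prometaphase with 200 ng/ml nocodazole for 7 to 8.5 h and sorted in prometaphase (0 min) or, after release, in ana/telophase (30 min), early-G1 (60 min) or mid-G1 (120 min), without auxin or with 1 mM auxin from the last 4 h of arrest onwards, which degrades CTCF. The protocol text in the labels gives 25 min for ana/telophase where the titles give 30 min. The 18 libraries, 2 per condition and 3 per mid-G1 condition, had been merged into 8 maps before the values were made.

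CTCF binds a directional DNA motif and stops the cohesin complex as it extrudes chromatin, which leaves loops between pairs of CTCF sites that mostly face each other. Contacts between enhancers and promoters also form where no CTCF is bound. A large CTCF loop around an enhancer and a promoter keeps the pair in 1 neighbourhood, whereas a CTCF anchor between them can keep them apart. During mitosis loops are dissolved, and both kinds are built anew on entry into G1.

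The sequences below mark the outer edges of some regions described further on. They are matches to the CTCF core motif, a consensus of 12 letters, in the 30 kb around the anchors of the smallest structural loop that enclosed a named CRE loop. Each is read 5′ to 3′ on the strand of the match in the mm9 genome, with the core in capitals.
Foxo3, upstream edge, chr10:41751002-41751041, forward strand: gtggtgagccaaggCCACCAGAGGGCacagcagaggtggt
Birc3, downstream edge, chr9:7897724-7897763, reverse strand: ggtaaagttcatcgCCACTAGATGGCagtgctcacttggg
Lmo2, downstream edge, chr2:103822561-103822600, reverse strand: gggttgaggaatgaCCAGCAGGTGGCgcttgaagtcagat
Klf3, upstream edge, chr5:64773851-64773890, forward strand: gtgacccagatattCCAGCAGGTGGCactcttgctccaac
Klf3, downstream edge, chr5:65204893-65204932, reverse strand: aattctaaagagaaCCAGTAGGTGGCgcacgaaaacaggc
Gng10, upstream edge, chr4:58998150-58998189, forward strand: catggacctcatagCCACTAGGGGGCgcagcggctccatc
Gng10, downstream edge, chr4:59582579-59582618, reverse strand: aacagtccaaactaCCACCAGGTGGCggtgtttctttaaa
Kit, upstream edge, chr5:75609856-75609895, reverse strand: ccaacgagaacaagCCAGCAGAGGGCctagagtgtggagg
Kit, downstream edge, chr5:76249262-76249301, reverse strand: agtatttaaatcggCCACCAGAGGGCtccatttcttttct
In the Klf3 and Gng10 regions the printed matches face each other across the region, and at Kit both lie on the reverse strand. The Lmo2 match lies in an intron of 4931422A03Rik, the upstream Gng10 match in an intron of Ptgr1 and the downstream Klf3 match in an intron of Klf3. The others lie between protein-coding genes of GENCODE vM1. Only the Foxo3 match and the downstream Klf3 match lay inside a summit bin that a CRE loop described here shared with its enclosing loop.

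The next sequences are promoters, the 250 bases before a transcription start, at anchors of CRE loops with a gene of the blood lineage. Capitals mark AGATAA or its reverse complement TTATCT, a motif that GATA factors bind, searched on both strands.
Foxo3, chr10:41996559-41996808, reverse strand: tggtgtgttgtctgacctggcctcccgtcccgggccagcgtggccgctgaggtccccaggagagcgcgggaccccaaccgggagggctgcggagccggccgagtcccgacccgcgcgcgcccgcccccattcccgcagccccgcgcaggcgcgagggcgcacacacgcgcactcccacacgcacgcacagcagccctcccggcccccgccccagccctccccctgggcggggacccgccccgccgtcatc
Lmo2, an upstream start, chr2:103797893-103798142, forward strand: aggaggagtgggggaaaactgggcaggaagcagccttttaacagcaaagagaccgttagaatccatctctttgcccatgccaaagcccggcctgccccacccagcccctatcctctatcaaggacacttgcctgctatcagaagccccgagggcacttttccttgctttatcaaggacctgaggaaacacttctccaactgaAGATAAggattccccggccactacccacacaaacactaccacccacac
Klf3, an inner start, chr5:65203328-65203577, forward strand: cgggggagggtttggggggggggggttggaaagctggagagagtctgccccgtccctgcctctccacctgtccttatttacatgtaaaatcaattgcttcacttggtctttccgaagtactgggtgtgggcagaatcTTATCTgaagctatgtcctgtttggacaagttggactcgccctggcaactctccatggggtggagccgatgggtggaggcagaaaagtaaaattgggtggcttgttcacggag
Kit, chr5:75970691-75970940, forward strand: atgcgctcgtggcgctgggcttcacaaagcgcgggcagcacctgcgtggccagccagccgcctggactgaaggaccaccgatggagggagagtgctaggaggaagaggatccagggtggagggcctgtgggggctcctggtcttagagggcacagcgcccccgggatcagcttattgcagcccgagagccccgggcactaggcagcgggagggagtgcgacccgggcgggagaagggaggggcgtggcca
The motif was present once in the Lmo2 and once in the Klf3 window, and these letters were not in the Foxo3 and Kit windows. They were also not in the windows of a second Lmo2 start and a second Klf3 start at anchors of named loops, nor in those of Runx1 and Jak2, so the printed windows over-represent the motif. Among 25 promoters at anchors of the loops named by rule, 3 held it, and among all 45971 promoter windows of protein-coding transcripts 8.51% did.

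The uncrossed inside loops were short. Their median size was 100 kb, with quartiles of 80 and 150 kb and a range of 70 to 500 kb. They lay on 20 chromosomes, from 12 loops on chromosome X to 106 on chromosome 2. The summit was a 10 kb pixel in 869 and a 25 kb pixel in 48. For 430 loops 1 structural loop was the enclosure, for 221 there were 2, and for 266 there were 3 or more, at most 9. The smallest enclosing loop had a median size of 350 kb (quartiles 240 and 575 kb), and the CRE loop spanned a median 32.6% of it. These smallest enclosures were 525 distinct structural loops, of which 308 held 1 of the 917 and the fullest held 9. Anchors were shared as well: 384 of the 917 loops (41.9%) had an anchor midpoint in common with another of them. Loops that share an anchor or an enclosure are not independent of each other.

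Loop strength is the observed contact count over that expected from a ring of surrounding pixels, taken as the mean of the summit pixel with the 8 pixels touching it, so a value of 1 means no enrichment. The 917 loops had a median strength of 1.00 in untreated prometaphase cells, 1.46 at ana/telophase, 1.65 at early-G1 and 1.62 by mid-G1. With auxin the medians were 0.996, 1.34, 1.48 and 1.43. The medians were thus at the level of no enrichment in prometaphase under both treatments, and in each later map the auxin-treated median was the lower one. Of single loops, 47 had a strength of at least 1.5 in prometaphase without auxin and 35 with it. Medians of single chromosomes had an SD between 0.0675 and 0.138 in these maps. In mid-G1, 552 loops had a strength of at least 1.5 without auxin and 405 with it.

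Changes are given as log2 of the strength with auxin over that without. The median change was -0.02 in prometaphase (SD over 20 chromosomes 0.05), -0.12 by ana/telophase (SD 0.05), -0.13 by early-G1 (SD 0.06) and -0.17 by mid-G1 (SD 0.05). In mid-G1 the median was negative on 20 of 20 chromosomes, from -0.28 to -0.06. The share of the loops with a lower value under auxin was 53.0% in prometaphase and 68.7%, 70.2% and 72.6% in the 3 later stages. At all 3 post-mitotic stages together 449 loops (49.0%) were lower with auxin, and 99 (10.8%) were lower at none. The tables used here give each loop 1 value per merged map, and no test between treatments was run on them. Maps of single replicates were not analysed here. Chromosomes of 1 map share its libraries, so their SD shows how even the change was along the genome and not how it would vary between cultures. The maps average over many sorted cells, and fewer cells with a loop cannot be told apart from a weaker loop in each cell.

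**Figure D1:**
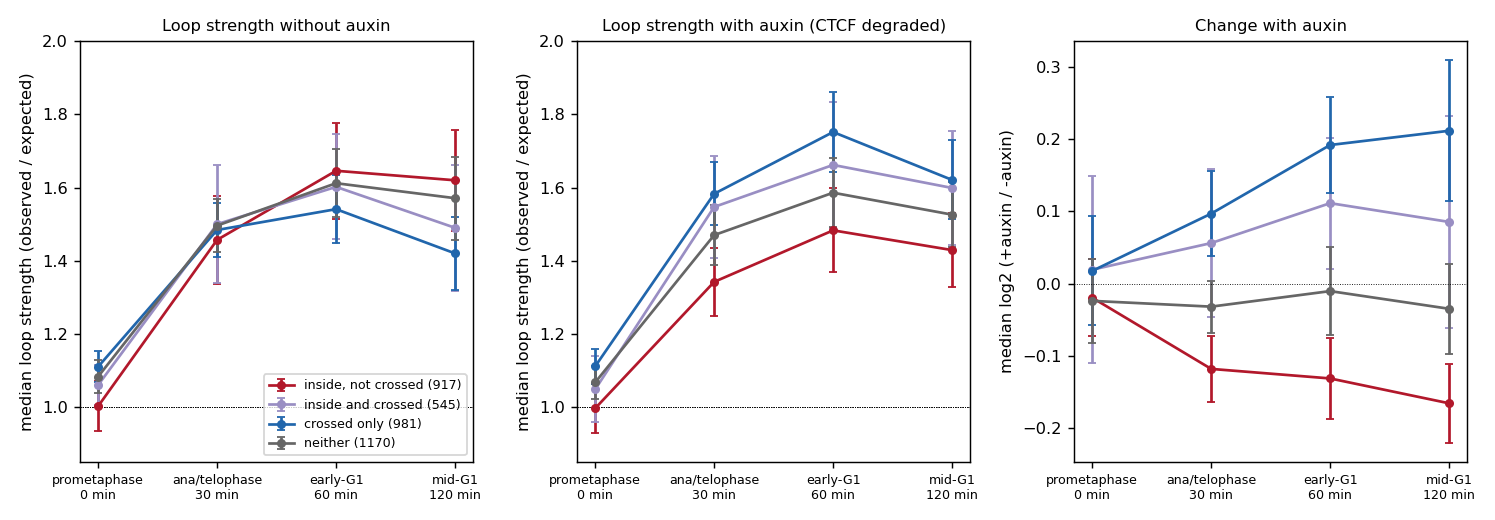
Median loop strength by stage without auxin (left) and with auxin (middle), and the median log2 change (right), for CRE loops up to 500 kb in 4 positions relative to structural loops. Bars are the SD of single-chromosome medians; the 917 loops that lay inside and were not crossed had a median change of -0.17 in mid-G1, and the crossed-only loops 0.21.

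A fold was called weaker or stronger where the log2 change was at least 0.5 in size. In prometaphase 104 of the 917 loops (11.3%) were weaker, against 12.9% of all loops of the series, and 80 (8.72%) were stronger, against 9.05%. In ana/telophase 69 (7.53%) were weaker, against 25.4% of all loops, and 10 (1.09%) were stronger, against 1.61%. The early-G1 counts were 106 weaker (11.6%, all loops 36.5%) and 14 stronger (1.53%, all loops 3.84%). By mid-G1, 128 were weaker (14.0%, all loops 42%) and 12 were stronger (1.31%, all loops 4.06%). All loops include the structural loops and those with both CTCF and regulatory elements at their anchors. Of the 917 loops, the share weaker in mid-G1 was thus 14.0% beside 11.3% in prometaphase, and the share stronger 1.31% beside 8.72%. After subtracting each loop's prometaphase change, 22.8% were weaker in mid-G1 (all loops 40.2%) and 8.18% stronger (all loops 8.14%). The subtraction adds the prometaphase spread to every loop, so both shares can rise from it alone.

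Across the 917 loops the mid-G1 change went along with the early-G1 change (Spearman correlation 0.73) and with the ana/telophase change (0.56), and hardly with the prometaphase change (0.09). These are correlations across loops of the same maps, with no test, and loops are not replicates.

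Among CRE loops in the other positions the mid-G1 median change was 0.21 for the crossed-only loops (SD over chromosomes 0.10), 0.09 for loops both encompassed and crossed (SD 0.15) and -0.03 for the free loops (SD 0.06). The crossed-only median exceeded that of the uncrossed inside loops by 0.38 (SD of the difference over chromosomes 0.11) in mid-G1, on 20 of 20 chromosomes. In prometaphase the same difference was 0.04 (SD 0.10), with 14 of 20 chromosomes in this direction. Free loops exceeded them by 0.13 (SD 0.09) in mid-G1, on 19 of 20 chromosomes. In prometaphase that difference was below 0.01 in size, with 11 of 20 chromosomes in this direction. The share lower at all 3 post-mitotic stages was 49.0% for the uncrossed inside loops, 32.7% for free loops, 23.1% for loops encompassed and crossed and 15.5% for crossed-only loops. At the level of strength, the uncrossed inside loops had the highest mid-G1 median of these 4 positions without auxin (1.62, against 1.42 to 1.57) and the lowest with it (1.43, against 1.53 to 1.62).

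**Figure D2:**
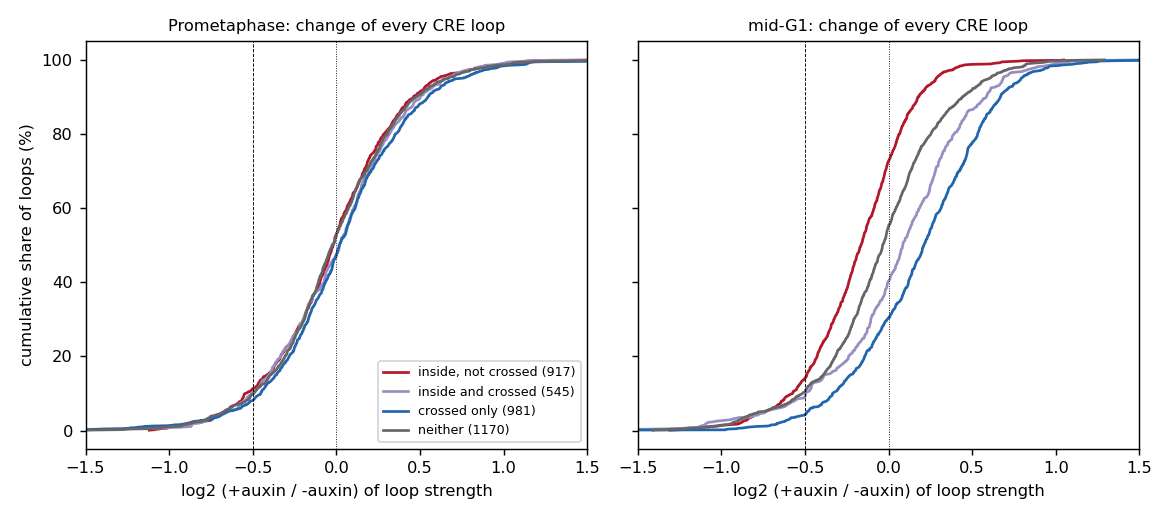
Cumulative share of CRE loops (%) by their log2 change in prometaphase (left) and mid-G1 (right), for the same 4 positions; dashed lines mark a change of -0.5. In prometaphase 53.0% of the uncrossed inside loops and 47.2% of the crossed-only loops lay below 0, and in mid-G1 72.6% of the uncrossed inside loops lay below 0, against 30.4% of the crossed-only loops.

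Loop size differed between the positions, so the change was also read within size bins. Up to 100 kb the median mid-G1 change of the uncrossed inside loops was -0.13 (475 loops), from 100 to 200 kb -0.19 (313 loops), from 200 to 300 kb -0.24 (86 loops) and from 300 to 500 kb -0.25 (43 loops). Crossed-only loops had 0.40, 0.27, 0.19 and 0.12 in the same bins, and free loops -0.08, -0.02, 0.01 and -0.03. The uncrossed inside loops had the lowest median in each bin. Up to 100 kb their gap to the free loops was below the SD over chromosomes of either position (0.07 and 0.08). In the largest bin the SD over chromosomes of the uncrossed inside loops (0.31) exceeded the size of their median.

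The authors' labels of first detection give a second view, since a loop had to be called in at least 1 map to be listed. Of the 917 loops, 510 (55.6%) were called only without auxin, here lost, 295 (32.2%) under both treatments, here kept, and 112 (12.2%) only with auxin, here gained. Among all loops of the series 71.1% were lost, 14.4% kept and 14.6% gained. The share lost was 45.3% among free loops, 35.8% among loops encompassed and crossed and 28.9% among crossed-only loops. A label is not a level. Lost loops had to be called without auxin and gained loops with it, so the sign of their change is partly set by the label. Of the 917, 510 were listed only through untreated maps and 112 only through auxin maps, so their median change carries this selection too. Among the lost loops of the 917 the mid-G1 medians were 1.64 without auxin and 1.33 with it (median change -0.28), and 31.8% of them still had a strength of at least 1.5 with auxin. Kept loops had medians of 1.71 and 1.63 (change -0.06), and gained loops 1.29 and 1.43 (change 0.14).

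The timing of the CRE loops was set beside that of the structural loops around them. Without auxin the mean strength of the 917 loops had made 73.2% of the prometaphase to mid-G1 increase by the ana/telophase map and 101% by early-G1. The 525 smallest enclosing loops had covered 50.4% and 78.9%. Leaving out 1 chromosome at a time kept the ana/telophase values between 72.6% and 73.8% for the CRE loops and between 50.1% and 51.2% for the enclosures. The map with the highest value was mid-G1 for 412 of the 917 and for 406 of the 525 enclosures. With auxin the CRE loops were at 80.6% by ana/telophase and at 110% by early-G1, and 301 of them peaked in mid-G1 while 460 peaked in early-G1. First detection without auxin fell on ana/telophase for 210 loops, early-G1 for 388 and mid-G1 for 207. With auxin these numbers were 117, 225 and 64, and 1 loop carried the prometaphase label.

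The enclosing loops themselves went from a median mid-G1 strength of 2.52 without auxin to 1.31 with it, a median log2 change of -0.98 over 525 loops, and 94.9% of them were lost. The change of the CRE loop inside varied little with the strength of its smallest enclosure. Its mid-G1 median was -0.16 where the enclosure had a strength below 2 (230 loops), -0.19 from 2 to 3 (377 loops) and -0.15 at 3 or more (310 loops), and the Spearman correlation across the 917 was -0.01. With the change of the enclosure it was 0.07. Loops with 1, 2 and 3 or more enclosures had medians of -0.19, -0.18 and -0.13. For the 46 loops whose smallest enclosure was kept with auxin the median was -0.18, and for the 864 whose smallest enclosure was lost it was -0.17.

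Medians lay further apart when the loops were split by their distance to the anchors of the enclosure. The smaller of the 2 gaps between a CRE anchor and the anchor of the smallest enclosure had a median of 30 kb, with quartiles of 10 and 80 kb. Where that gap was 0 (144 loops, with a shared midpoint) the median mid-G1 change was -0.27, up to 50 kb it was -0.20 (467 loops), and above 50 kb it was -0.04 (306 loops). The Spearman correlation between the change and the smaller gap was 0.32. Counting anchors within 20 kb of an anchor of the enclosure, a cut chosen after these values had been seen, 518 loops had none, 369 had 1 and 30 had both. Their median mid-G1 strengths were 1.53, 1.77 and 2.14 without auxin, and 1.43, 1.43 and 1.25 with it. The median changes were -0.07 (SD over chromosomes 0.06), -0.27 (SD 0.09) and -0.59 (SD 0.24), whereas in prometaphase they were 0.00, -0.05 and 0.10. The median with none near exceeded that with 1 by 0.20 (SD over chromosomes 0.09), and by 0.13 (SD 0.14) after subtracting each loop's prometaphase change. Weaker calls in mid-G1 numbered 35 of 518 (6.76%), 75 of 369 (20.3%) and 18 of 30 (60.0%), and stronger calls 11, 1 and 0.

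The order of these classes was the same within each size bin. Up to 100 kb the medians with no, 1 and both anchors near were -0.06, -0.22 and -0.52, from 100 to 200 kb -0.08, -0.28 and -0.58, and above 200 kb -0.12, -0.37 and -0.84, the last over 4 loops. It was also the same among loops that reached 1.5 in untreated mid-G1 cells, at -0.17, -0.33 and -0.60, and among those that did not, at 0.00 (248 loops, 3.23% weaker), -0.16 (114 loops, 11.4% weaker) and -0.43 (3 loops). The untreated value is also the denominator of the change, so a split on it moves these medians by itself. Where a CRE loop lay this close to a structural loop, the 9 pixels of the 2 loops could overlap. They overlapped those of a structural loop, or of a loop with both CTCF and regulatory elements, in 125 of the 917, whose median mid-G1 change was -0.39. Without those 125 loops the median was -0.13 over 792 loops, -0.25 with 1 anchor near (319 loops) and -0.06 with none (473 loops). None of the 30 loops with both anchors near was left.

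**Figure D3:**
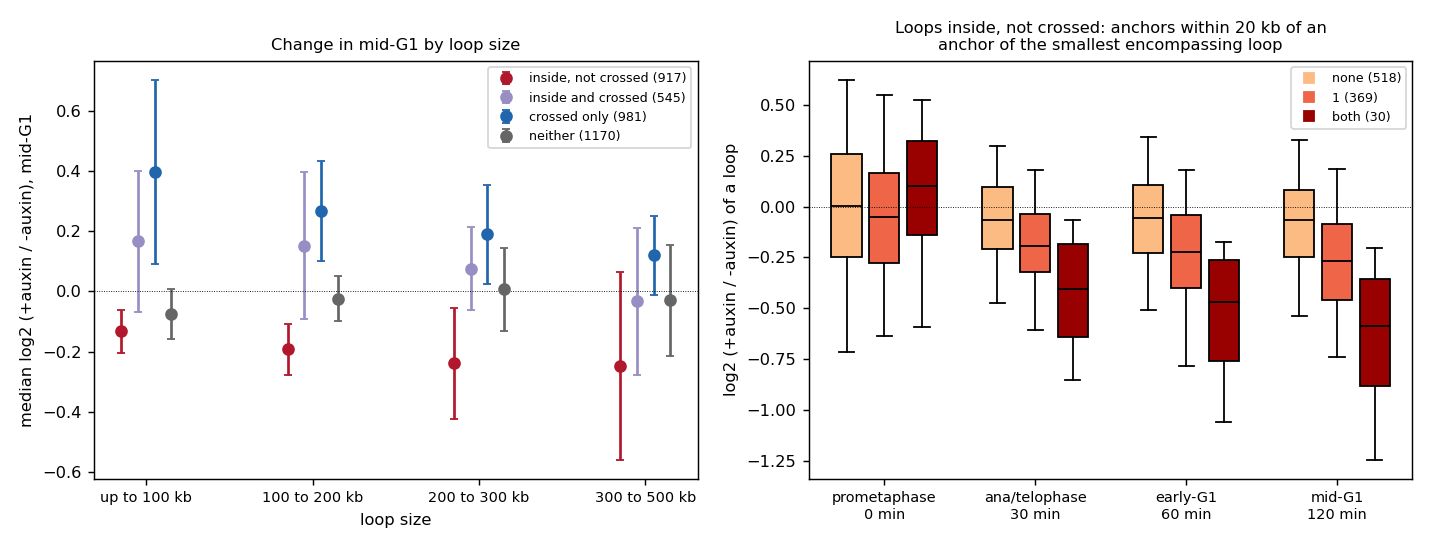
Left, median log2 change in mid-G1 by loop size and position, with the SD of single-chromosome medians as bars. Right, log2 changes of the 917 uncrossed inside loops by stage and by how many anchors lay within 20 kb of an anchor of the smallest enclosure (boxes, quartiles; whiskers, 5th to 95th percentile): the medians separate after prometaphase and reach -0.07, -0.27 and -0.59 in mid-G1.

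Insulation boundaries, called by the authors from the same maps, lay strictly between the anchors of 91 of the 917 loops (9.92%). The share was 57.8% for crossed-only loops, 43.7% for loops encompassed and crossed and 27.5% for free loops. The rule itself keeps structural anchors out of most of these spans, and larger loops hold more boundaries. Within size bins the shares were 2.32%, 7.99%, 25.6% and 76.7% for the uncrossed inside loops and 24.3%, 30.8%, 63.0% and 91.6% for crossed-only loops. The 79 distinct boundaries inside the 917 had a median strength, the height of the insulation dip, of 0.614 in mid-G1 without auxin and 0.474 with it (median log2 change -0.24). Those inside crossed-only loops had 0.865 and 0.507 (-0.72). The 91 loops with a boundary inside had a median change of -0.24 and the other 826 of -0.16. Within size bins, from the smallest up, the medians were -0.19, -0.22, -0.23 and -0.30 with a boundary and -0.13, -0.19, -0.24 and -0.16 without, with 11 loops in the smallest bin with a boundary and 10 in the largest without.

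The CTCF motif was read from the genome sequence, while the loop categories rest on bound CTCF. The CTCF core motif had 12717 matches in mm9. At least 1 lay in the 30 kb around 351 of the 1834 anchors of the uncrossed inside loops (19.1%), against 18.9% to 20.1% in the other 3 positions, 46.4% at all structural anchors and 12.6% of all 30 kb tiles of the genome. The share was thus close to that at the anchors of other CRE loops, and 592 of the 917 had the motif at neither anchor. Matches at both anchors in the convergent orientation were found for 14 loops and in the divergent one for 1, against 71 and 18 of the 525 smallest enclosures. The categories, with CTCF at both anchors of a structural loop and not of a CRE loop, set these differences from structural loops in advance. Between the anchors there were 3.18 matches per Mb in the uncrossed inside loops, 6.16 in free loops and 9.06 in crossed-only loops, an order that the rule favours because structural anchors inside a span are what crosses it. The median mid-G1 change was -0.13 with the motif at no anchor, -0.23 with it at 1 (299 loops) and -0.29 with it at both (26 loops). Among the 518 loops with no anchor near the enclosure it was -0.06 with no motif, -0.15 with 1 (137 loops) and -0.04 with both (11 loops), the last 2 with SDs over chromosomes of 0.14 and 0.26. With 1 or both anchors near, the medians were -0.27 (222 loops), -0.30 (162 loops) and -0.41 (15 loops), with SDs of 0.11, 0.11 and 0.19.

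Genes at the anchors came from GENCODE vM1. A protein-coding transcription start lay in neither summit bin of 370 of the 917 loops, in 1 bin of 370 and in both bins of 177, over 688 genes in all. With starts counted in the summit bins, loops with a start in both had the median change nearest to 0. Their mid-G1 medians were 1.52 without auxin and 1.42 with it (median change -0.06, SD over chromosomes 0.14), whereas the changes with 1 start and with none were -0.18 (SD 0.10) and -0.19 (SD 0.13). The share lost ran the same way, at 41.8% with 2 starts, 53.0% with 1 and 64.9% with none. Free loops had medians of 0.05, -0.04 and -0.16 with 2, 1 and no starts. With starts counted in the 30 kb around each anchor, the window in which the authors assigned elements, the order of the changes was not seen, while that of the shares lost was (52.0%, 55.1% and 63.3%). The median changes of the uncrossed inside loops were then -0.14 with 2 starts (348 loops), -0.20 with 1 (381 loops) and -0.15 with none (188 loops), and the shares weaker 14.7%, 13.7% and 13.3%. Free loops had 0.01, -0.12 and -0.17 in these windows, so that with no start they were not above the uncrossed inside loops. The gap between the medians of the 2 positions with no start was below the SD over chromosomes in either window. Distance and gene starts in the summit bins were partly tied, since 31.6% of the loops with 2 starts had an anchor within 20 kb of the enclosure, against 47.3% with 1 and 45.4% with none. With an anchor near, the medians for 2, 1 and no starts were -0.22, -0.26 and -0.35 (SDs over chromosomes 0.209, 0.135 and 0.139). With none near they were -0.03, -0.07 and -0.10 (SDs 0.191, 0.127 and 0.136). Each step between neighbouring medians was below these SDs.

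**Figure D4:**
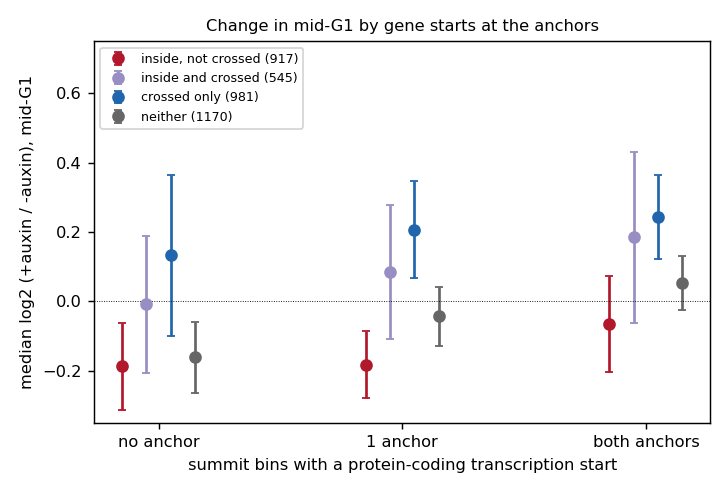
Median log2 change of loop strength in mid-G1 by how many of the 2 summit bins held a protein-coding transcription start, for CRE loops up to 500 kb in 4 positions, with the SD of single-chromosome medians as bars. The uncrossed inside loops had medians of -0.19, -0.18 and -0.06 with no, 1 and 2 starts; in 30 kb windows, not plotted, these were -0.15, -0.20 and -0.14.

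The 8 loops with the largest lower values in mid-G1 were chosen by that change, so their values are a description. They came from 316 loops that had a strength of at least 1.5 without auxin and were lower at all 3 post-mitotic stages. A loop from chr9:7720001-7730000 to the start of Birc3, an inhibitor of apoptosis, at chr9:7870001-7880000 had strengths of 0.822, 1.99, 2.22 and 2.99 from prometaphase to mid-G1 without auxin. With auxin its values were 1.11, 1.32, 1.30 and 1.21, a mid-G1 change of -1.31. It was low in every auxin-treated map and kept growing through the untreated ones. Its anchors lay 10 and 20 kb inside those of a structural loop that went from 3.81 to 1.28, and the Birc3 edge sequence above belongs to that loop. A 350 kb loop on chromosome 8 from exons of Ash2l, a subunit of histone H3K4 methyltransferase complexes, and Star to an exon of Thap1 changed from 3.40 to 1.43 (-1.25). A 100 kb loop from an intron of Sesn1 to an exon of Armc2 changed from 1.84 to 0.772 (-1.25). The Galk2 to Dtwd1 loop (-1.20), a 490 kb loop from Rpa3, a subunit of replication protein A, to Ica1 (-1.14), a loop from chr1:133890001-133900000 to chr1:133990001-134000000 (-1.14) and the loop from Clpb to the start of Inppl1 (-1.13) followed. Of these 8 with Foxo3 below, 7 had an anchor within 20 kb of the enclosure and the Rpa3 to Ica1 loop did not. The Galk2 to Dtwd1 loop was already lower in prometaphase, with 0.947 without auxin and 0.4725 with it. The Rpa3 to Ica1 loop had 1.81 and 1.32 in prometaphase, and the chromosome 1 loop 1.05 and 0.951. The loops at Birc3, Sesn1, Ash2l, Foxo3 and Clpb were higher with auxin in prometaphase. Pixels of 4 of the 8, at Birc3, Sesn1, Foxo3 and chromosome 1, overlapped those of a loop with CTCF at its anchors.

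The 8 loops with the largest higher values were also picked by their change. They came from 53 that had a strength of at least 1.5 with auxin and were higher at all 3 post-mitotic stages. None of the 8 had an anchor within 20 kb of the enclosure, which also held for 518 of all 917 loops. Of the 8, 2 lay between Caprin1 and Lmo2 and are described below, the larger with a change of 1.05. A 120 kb loop from the start of Gng10, a G-protein gamma subunit, had 1.12, 0.926, 0.957 and 0.769 without auxin and 1.20, 1.26, 1.65 and 1.57 with it (mid-G1 change 1.03). It was not above 1.12 in any untreated map. Its convergent edge sequences, printed above, belong to a structural loop that went from 2.80 to 1.22. Further loops linked Sik3 and Zfp259 (0.67), Usp7 and 1810013L24Rik (0.67), 2 bins at chr17:84350001-84360000 and chr17:84540001-84550000 (0.50), and Otub1 and Atl3 (0.44).

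The 4 strongest of the 917 in untreated mid-G1 cells had strengths from 3.06 to 6.32 in untreated prometaphase cells, where the median of the 917 was 1.00. The authors treated very high pixels found in all samples as false calls, and removed pixels called in more than 6 samples. Whether outlier pixels enter the values of these 4 loops was not tested. A loop from an intron of Fam163a on chromosome 1 had 3.06, 7.73, 8.65 and 9.17 without auxin and 3.26, 6.77, 5.13 and 5.30 with it. An 80 kb loop within Msi2, an RNA-binding protein gene of blood progenitors, had 5.91 in prometaphase and 7.18 in mid-G1 without auxin, and 5.06 and 6.73 with it. A second Msi2 loop had 5.53 and 5.17 in mid-G1. A loop from an intron of Cdkn2a had 6.32 in prometaphase and 6.58 in mid-G1 without auxin, and 8.84 and 8.18 with it. Apart from the Fam163a loop (-0.79), their mid-G1 changes were between -0.10 and 0.31.

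Of 177 genes on 6 lists, from blood transcription factors to the loop machinery, 166 were annotated, and 13 had a start at an anchor of 22 of the 917 loops. Of those 22 loops 14 were lower in mid-G1, 2 weaker and 1 stronger, with a median change of -0.05. Over all 917 loops 72.6% were lower, 14.0% weaker and 1.31% stronger, with a median of -0.17. The blood transcription factors and cofactors gave 6 genes, Etv6, Foxo3, Ikzf1, Klf3, Lmo2 and Runx1, at 11 loops, of which 8 were lower, 1 of them weaker, and 1 was stronger (median -0.06). Red cell membrane genes gave 2 (Epb4.1 and Tmod1, 2 loops, median -0.27), cytokine receptor and signalling genes 3 (Jak2, Kit and Mcl1, 6 loops, 2 lower, median 0.05), cell cycle genes Cdkn2c (0.11), and loop machinery genes Ncapg, a condensin subunit, at 2 loops. Of the 29 annotated globin, haem and iron genes, 12 had a start at some CRE loop and none at the uncrossed inside loops, which were 19.8% of all CRE loops. With so few genes this count says little.

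Foxo3 encodes a forkhead transcription factor that acts in red cell maturation. Within its smallest enclosure, which went from 1.95 to 0.990 in mid-G1, lay 5 of the 917 loops, and all 5 were lower with auxin (median -0.44). The 240 kb loop from chr10:41750001-41760000 to the Foxo3 promoter printed above, at chr10:41990001-42000000, had 0.915, 2.21, 2.91 and 2.70 without auxin and 1.19, 1.34, 1.37 and 1.14 with it (-1.25). Its upstream anchor is the bin that holds the Foxo3 edge sequence, shared with the enclosure. The neighbouring loop to the same promoter from 20 kb further in, at chr10:41770001-41780000, had 0.859, 2.00, 2.55 and 2.35 without auxin and 1.09, 2.11, 2.13 and 2.03 with it (-0.21), although the authors' labels list it as gained. The pair thus had similar values without auxin and different ones with it, while their 9 pixels overlap in part. An 80 kb loop from an exon of Foxo3 to the same promoter went from 1.65 to 1.17 (-0.49).

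Lmo2 encodes a bridging factor of blood transcription complexes. Its region lay in an enclosure that went from 2.20 to 1.129, and of the 6 CRE loops there 3 were higher and 3 lower with auxin. The loop from the start of Caprin1, an RNA-binding protein gene, at chr2:103630001-103640000 to the Lmo2 start printed above, at chr2:103790001-103800000, had 1.58, 1.28, 1.20 and 1.12 without auxin and 1.15, 2.05, 2.16 and 2.32 with it (1.05). From the same Caprin1 bin, a loop to chr2:103810001-103820000, which holds other Lmo2 starts, went from 1.95 to 2.55 (0.39), and a loop to chr2:103720001-103730000 from 1.08 to 1.85 (0.78). A loop from the start of Nat10, an RNA acetyltransferase gene 30 kb away, at chr2:103600001-103610000 to the Lmo2 side at chr2:103820001-103830000 went the other way, from 2.72 to 1.74 (-0.64). In prometaphase it already had 1.87 without auxin and 1.20 with it. A loop from the same Nat10 bin to chr2:103700001-103710000 went from 1.86 to 1.01 (-0.88), with 1.12 and 0.864 in prometaphase. The fourth loop from the Caprin1 bin, to the same bin at chr2:103700001-103710000, was the third lower one, from 1.131 to 0.956 (-0.24). The loops of the Caprin1 bin thus went both ways in mid-G1, and both loops of the Nat10 bin were lower, in prometaphase as well.

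Kit encodes the receptor for stem cell factor. Its enclosure went from 2.16 to 1.20 and held 9 of the 917 loops, with 4 lower and 5 higher. The loop from chr5:75850001-75860000 to the Kit promoter printed above, at chr5:75970001-75980000, had 0.612, 1.59, 1.76 and 1.72 without auxin and 1.10, 1.58, 1.75 and 1.76 with it, a mid-G1 change of 0.03. Its 3 post-mitotic values were almost the same under both treatments. The loop from the Kit promoter in the other direction, to chr5:76220001-76230000 beside the downstream anchor of the enclosure, went from 1.64 to 1.16 (-0.50), with 1.36 and 1.145 in prometaphase. A loop from chr5:76020001-76030000 to chr5:76230001-76240000 went from 2.73 to 2.04 (-0.42), with 0.972 and 0.583 in prometaphase. The 3 Kit-region loops with an anchor within 20 kb of the enclosure were all lower in mid-G1, and the 6 others had changes between -0.15 and 0.18. Of the 3, the 1 starting at chr5:76130001 was higher with auxin in prometaphase (0.706 and 0.847).

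**Figure D5:**
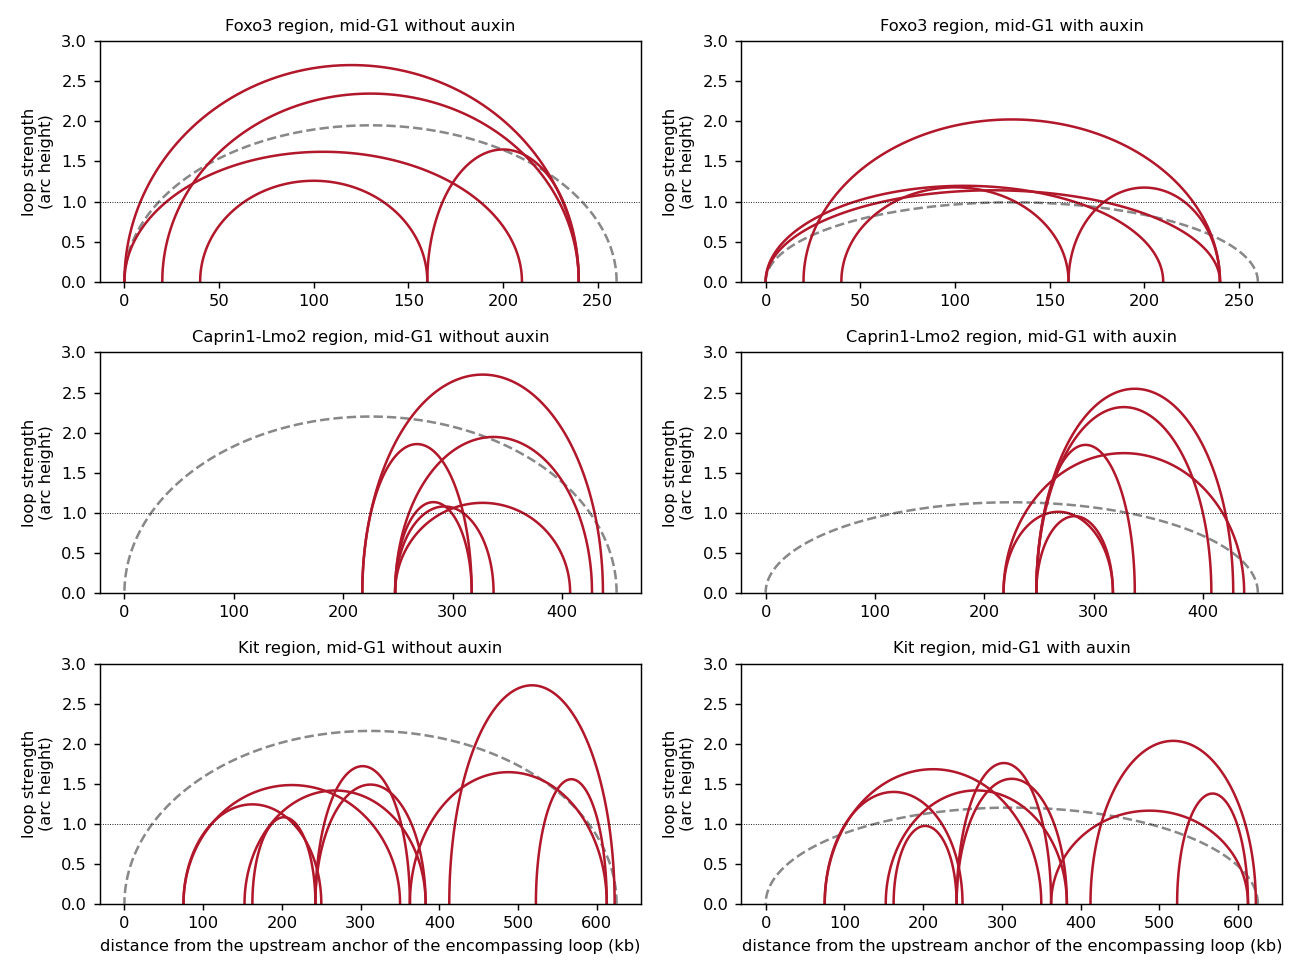
CRE loops (solid arcs) of the Foxo3, Caprin1-Lmo2 and Kit regions inside their smallest enclosing structural loop (dashed arc) in mid-G1 without auxin (left) and with it (right). The horizontal axis is the distance in kb from the upstream anchor of the enclosure and the height of an arc is its loop strength; the dashed arcs drop from 1.95, 2.20 and 2.16 to 0.990, 1.129 and 1.20.

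Other listed genes showed the range in between. Ncapg was linked to the start of Lap3 by a loop of 2.99 without auxin and 2.05 with it (-0.54), and to Med28 by one of 2.44 and 2.06 (-0.25), inside an enclosure that went from 4.99 to 0.857. Klf3, a repressor of the Krüppel-like family, had 2 loops from upstream elements, at 1.93 and 1.88 and at 1.76 and 1.70 in mid-G1 (-0.04 and -0.05). The second of these shares its downstream anchor bin, and the Klf3 edge sequence in it, with an enclosure that went from 3.86 to 1.91. A 500 kb loop from the start of Runx1, a master regulator of blood formation, had 1.89 and 1.78 (-0.08), with its anchor at the anchor of the enclosure, and a loop from Rcl1 to the start of Jak2, the kinase of the erythropoietin receptor, had 1.95 and 1.92 (-0.02). The Jak2 loop had no anchor within 20 kb of its enclosure. A loop from an exon of Rnf11 to the start of Cdkn2c, an inhibitor of cyclin-dependent kinases, had an anchor 10 kb from that of the enclosure and was higher in mid-G1 with auxin, at 2.30 and 2.48 (0.11).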

How the data were processed

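The 917 loops, the gene lists and the comparisons were chosen with earlier results of these data known. Reads had been processed by the authors with HiC-Pro 2.10.0 and Bowtie2 on mm9, replicates were merged, and loops were called with a modified HICCUPS (juicer_tools 1.13.02) at 10 kb (false discovery rate 0.2) and 25 kb (0.01). Loop strength, as deposited, is a ratio of the contacts seen to those expected from a ring whose diameter in loop calling was 4 to 16 bins at 10 kb and 1 to 6 bins at 25 kb, so another loop within that ring enters the expected value. The deposited boundary strength is a signal, the height of the dip in insulation at boundaries called by the authors with rGMAP 1.4. Elements were assigned to anchors by the authors in 30 kb windows, and pixels called in more than 6 samples had been removed by them. Contacts behind single loops are not in the tables used, so depth per value is unknown, and 4 triptolide libraries were not analysed here.

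Geometry, log2 changes without a pseudocount, medians and SDs of single-chromosome medians were computed in Python 3.11.15 with pandas 2.3.3, numpy 2.4.6 and scipy 1.17.1, and checked on simulated loops. Motifs and genes came from the mm9 genome (NCBIM37) and GENCODE vM1 on the same build. No coordinate lay past a chromosome end. Named loops were the 8 largest mid-G1 falls and 8 largest rises that kept their sign at all 3 post-mitotic stages and reached a strength of 1.5 in mid-G1, without and with auxin respectively, the 4 strongest, and up to 12 with a listed gene start in a summit bin; 1 of them is not reported here. No test was run, as the tables used hold merged maps only.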

Additional observations from a re-analysis of the deposited data

How the results depend on the processing

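No paired analysis was possible because the tables used here hold 1 value per merged map, and for the same reason no replicate was left out. Maps of single replicates were not analysed here. Under the alternatives tried, the median mid-G1 change of the uncrossed inside loops stayed between -0.20 and -0.13, and the crossed-only median stayed above it by 0.26 to 0.41. The lowest of these differences, 0.26, came without the 500 kb limit. The share of weaker loops in mid-G1 (14.0%) moved to 16.5% among loops of strength 1.5 or more, to 10.5% with both midpoints at least 20 kb inside, to 22.8% after subtracting the prometaphase change, and to 10.6% without overlapping pixels, an alternative chosen after seeing the data. The pseudocount, the centring and the prometaphase subtraction do not enter the detection labels. The share lost stayed between 52.9% and 56.5%. Loops with no anchor within 20 kb of the enclosure exceeded those with 1 by 0.13 to 0.23, beside 0.20 as reported (20 kb inside was not run, as it sets a floor on the same distance), a comparison and alternatives also chosen after seeing the data. The lowest, 0.13 after subtracting the prometaphase change, was below its SD over chromosomes of 0.14. In 10 kb windows 8.56% of the anchors held the CTCF core motif (other CRE positions 8.31% to 8.68%, all tiles 4.57%), and with 30 kb windows 729 loops in place of 547 had a gene start at an anchor and the order of change by number of starts was not seen. A strength rests on 9 pixels of 1 merged map, and in prometaphase 11.3% of these loops passed the fold for weaker.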
